A study of Schizosaccharomyces pombe with 6 samples.

Results

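The 10 rows examined here are copies of *Tf2*, a retrotransposon of the fission yeast *Schizosaccharomyces pombe*: *Tf2-2* (SPAC167.08), *Tf2-3* (SPAC2E1P3.03c), *Tf2-4* (SPAC26A3.13c), *Tf2-5* (SPAPB15E9.03c), *Tf2-6* (SPAC27E2.08), *Tf2-7* (SPAC13D1.01c), *Tf2-8* (SPAC19D5.09c), *Tf2-9* (SPBC9B6.02c), *Tf2-11* (SPBC1289.17) and *Tf2-12* (SPCC1020.14). They were picked by gene identifier from the 7001 genes of the RNAseq tables. The tables hold 3 further copies, *Tf2-1*, *Tf2-10* and *Tf2-13*, which are given only beside them. The groups compared were the *igo1*Δ strain (h- igo1::kanMX6, called a knockdown in the genotype label), the *igo1*Δ *nmt41:GST:pab1* + thiamine strain (h- nmt41-GST-pab1-KanMx6 igo1::natMx6, called *pab1*-repressed below) and WT (h- 972). Each had 2 libraries, numbered replicates 1 and 2, and no label states that they came from separate cultures, so p-values measure the spread between these libraries. All cells were h- and had spent 4 hours in minimal medium without nitrogen at 25 °C, and the *pab1*-repressed strain carries the *igo1* deletion too. *igo1* encodes Endosulfine, which inhibits the phosphatase PP2A/B55 when the Greatwall kinase has phosphorylated it. *pab1* encodes the B55 subunit of that phosphatase. The study asked what this pathway does when cells enter quiescence, and the paper proposes that it sustains translation through tRNA modifications. RNAseq was part of its evidence, beside protein, tRNA and chromatin assays. The paper's own chart of genes raised in *igo1*Δ shows *Tf2* copies, so their rise here is not taken as independent evidence. The RNAseq described in the paper had no *pab1*-repressed group. Whether its chart used the same *igo1*Δ and WT libraries is not given.

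*Tf2* is a retrotransposon with long terminal repeats (LTRs), of the Ty3/gypsy kind. Each copy is transcribed into an RNA that serves both as message and as the template that reverse transcriptase copies into new DNA. A single long reading frame encodes the Gag protein, which forms the particle, together with protease, reverse transcriptase and integrase. *Tf2* is the full-length element of the common laboratory strain. Its RNA is known to be held low by CENP-B proteins, by the HIRA histone chaperone and by histone deacetylases, and to rise under several stresses.

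The copies are nearly the same sequence, which limits what a value for a single copy can mean. In the RefSeq genome ASM294v3, matched by gene identifier, each of the 10 has a coding sequence of 4002 bases, and the 10 hold only 4 different versions. *Tf2-2*, *Tf2-4* and *Tf2-9* share the first version base for base. *Tf2-3*, *Tf2-5*, *Tf2-6* and *Tf2-12* share the second. *Tf2-7* and *Tf2-8* share the third, and *Tf2-11* alone has the fourth. The 4 versions differ at 18 positions in all. The stretches of 30 bases printed here show the sites that set the versions apart, with the variable bases in capitals and positions counted from 1 at the start codon. At positions 143 to 172 the change T153A separates the first version from the second, and the third version carries it as well:
*Tf2-2*, positions 143 to 172: aattcgatccTaataaggatgttgaaagtt
*Tf2-3*, positions 143 to 172: aattcgatccAaataaggatgttgaaagtt
At positions 2075 to 2104 the change T2085G is found in *Tf2-7* and *Tf2-8* and in none of the other 8:
*Tf2-2*, positions 2075 to 2104: gtttagtttcTcctccggtgctacgacact
*Tf2-7*, positions 2075 to 2104: gtttagtttcGcctccggtgctacgacact
At positions 634 to 663 the changes C644T and T649C are found in *Tf2-11* alone:
*Tf2-2*, positions 634 to 663: ggaaaagagtCccttTcaaagaaaaataac
*Tf2-11*, positions 634 to 663: ggaaaagagtTccttCcaaagaaaaataac

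The first and second versions differ at 2 bases, T153A and T617C. *Tf2-2* and *Tf2-7* differ at 10 bases, and *Tf2-2* and *Tf2-11* at 16, which leaves 99.6% identity. Only *Tf2-11* had stretches of 50 bases within its coding sequence that occur nowhere else in the genome, 358 of 3953 (9.06%). Counted over the whole element with both LTRs, 681 stretches of *Tf2-11* were unique (14.2%), 59 of *Tf2-2* and 47 of *Tf2-9*, and the other 7 copies had none. The 5′ LTR of *Tf2-11* is annotated with 293 bases, against 349 for *Tf2-2*. It lies 70 edits (changed, added or missing bases) from that of *Tf2-2*, and the missing length is part of these. The 5′ LTRs of the other copies lie 0 to 7 edits away. Reads from most of a copy can therefore also align to other copies. How reads that align to several places were counted is not given in the sources used here, and the sum over the copies is given beside the single values for that reason.

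The libraries held 14791399 to 18809513 reads assigned to genes, recovered as whole reads from the deposited normalized values. Levels are given in RPM, reads of a gene per 1000000 reads, scaled by TMM, a normalization that lines up the bulk of genes between libraries. The *igo1* row did not mark the deletion: it had 1693 and 1478 reads in libraries labelled *igo1*Δ, 2307 and 5035 in those labelled *pab1*-repressed, and 1876 and 2098 in WT. The *pab1* row had 2296 and 1078 reads in libraries labelled *pab1*-repressed, 2182 and 1819 in *igo1*Δ and 2853 and 3027 in WT. Its log2 fold change in *pab1*-repressed was −0.73 against *igo1*Δ (adjusted p = 0.199, limma) and −1.15 against WT (adjusted p = 0.226, limma). Neither passed the test. In *igo1*Δ against WT *pab1* changed by −0.46 (adjusted p = 0.00135, edgeR). All directions below therefore rest on the labels, and *igo1*Δ and *pab1*-repressed mean the libraries labelled so. The labels mention thiamine in the washes of every strain. *nmt1*, a thiamine-repressed gene, had 66 and 49 reads in the *pab1*-repressed libraries and 146558 to 202812 in the other 4, so the effects of repressing *pab1* and of the vitamin itself cannot be told apart. The 5 marker genes of M cells, the mating type that h- strains have, summed to 115 and 99.0 RPM in *igo1*Δ, 1164 and 1305 in *pab1*-repressed and 1500 and 1371 in WT. The 3 P-cell markers summed to 16.8 and 19.4 RPM in *igo1*Δ, 36.2 and 42.3 in *pab1*-repressed and 32.2 and 33.9 in WT. In *igo1*Δ against WT *map1* changed by a log2 of −3.14 (adjusted p = 5.85e-06, edgeR). *map2*, at 0.50, and *map3*, at −0.22, did not pass. The M-cell sum, and less strongly the P-cell sum, moved opposite to *Tf2* in the first 2 comparisons. The part of these markers in the results was not tested. In bulk RNA, fewer cells with the transcript and less of it per cell cannot be told apart.

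The first question was whether *Tf2* RNA differed between *igo1*Δ and WT under nitrogen starvation. All 10 copies rose in the libraries labelled *igo1*Δ. Their reads summed to 23208 and 18822 in the *igo1*Δ libraries and to 1131 and 1101 in WT. Scaled to depth, the sum was 1387 ± 138 RPM in *igo1*Δ and 68.3 ± 5.60 RPM in WT (SD, n = 2 each), which is 20.3-fold higher. *Tf2* made up 0.131% and 0.102% of all reads in *igo1*Δ, against 0.00765% and 0.00685% in WT. No test was run on the sum, since its members were chosen with results known.

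*Tf2-8* had the most reads in each library. It stood at 593 and 519 RPM in *igo1*Δ and at 30.6 and 26.5 RPM in WT. *Tf2-6* followed with 282 and 312 RPM in *igo1*Δ and 14.3 and 13.7 RPM in WT. For *Tf2-7* the values were 247 and 159 RPM in *igo1*Δ and 9.01 and 8.18 RPM in WT. In all 3 the lower *igo1*Δ library lay more than 15 times above the higher WT library.

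*Tf2-11*, the copy with the most sequence of its own, had 170 and 130 RPM in *igo1*Δ and 8.69 and 7.07 RPM in WT. *Tf2-2* reached 89.9 and 84.5 RPM in *igo1*Δ, against 5.69 and 4.62 RPM in WT. *Tf2-4* reached 76.1 and 64.3 RPM in *igo1*Δ, against 3.45 and 2.75 RPM in WT. These 3 copies formed a middle class, and their groups did not overlap either.

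The other 4 copies had few reads, and none had more than 16 in a WT library. *Tf2-5* had 189 and 127 reads in *igo1*Δ and 4 in each WT library. *Tf2-3* had 102 and 64 reads in *igo1*Δ, against 2 and 16 in WT. *Tf2-9* had 70 and 60 reads in *igo1*Δ, and each WT library had 2. *Tf2-12* had 53 and 35 reads in *igo1*Δ, against 1 and 5 in WT. With so few WT reads the size of these 4 changes is loosely known: 95% intervals of the ratio of pooled reads (exact Clopper-Pearson, counting error only) ran from 6.13 to 17.3 for *Tf2-3*, 21.4 to 99.96 for *Tf2-5*, 13.4 to 131 for *Tf2-9* and 7.01 to 44.5 for *Tf2-12*. The 10 coding sequences are equally long in ASM294v3, but the lengths of the gene models that were counted are not given in the sources used here. The order of these levels is therefore not read as an order per length.

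**Figure D1:**
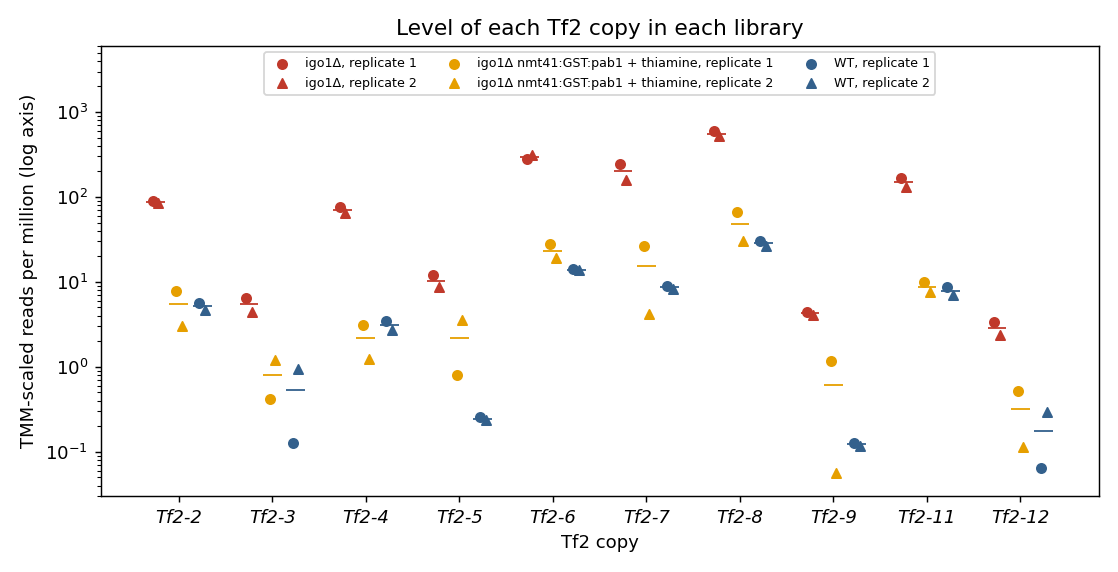
Level of each *Tf2* copy in each library, in TMM-scaled RPM on a log axis. Circles are replicate 1, triangles replicate 2 and short lines the group means, with *igo1*Δ in red, *pab1*-repressed in orange and WT in blue; each of the 10 copies has both *igo1*Δ points above all 4 others.

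By edgeR's quasi-likelihood test with Benjamini-Hochberg adjustment over all 5931 genes tested, 10 of 10 copies were called higher in the libraries labelled *igo1*Δ, where 29.6% of all genes were. Both *igo1*Δ libraries lay above both WT libraries for all 10, which held for 40.2% of all genes. The log2 fold changes ran from 3.29 (SE 0.53, adjusted p = 8.24e-04, edgeR) for *Tf2-3* to 5.35 (SE 0.36, adjusted p = 5.26e-06, edgeR) for *Tf2-5*. Their median was 4.33, against −0.03 over all genes tested. *Tf2-6* changed by 4.39 (SE 0.09, adjusted p = 1.67e-08, edgeR), *Tf2-8* by 4.27 (SE 0.11, adjusted p = 4.26e-08, edgeR) and *Tf2-11* by 4.24 (SE 0.17, adjusted p = 2.74e-07, edgeR). Ordered from the largest rise down, the copies took places 12 to 59 among the 5931 genes. Folds between group means ran from 10.3 (*Tf2-3*) to 42.5 (*Tf2-5*), with a median of 20.4. *Tf2-3* was at 2.52 without WT replicate 1 and at 5.31 without WT replicate 2 on the log2 scale, and *Tf2-12*, at 3.92 with both, was at 3.26 and 5.32; both copies were still called in each case. When all 6 libraries entered 1 edgeR fit, 8 copies passed, with 8.34% of all genes called higher, and *Tf2-3* (adjusted p = 0.0690, edgeR) and *Tf2-9* (adjusted p = 0.0511, edgeR) did not.

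The second question was whether *pab1* repression with thiamine altered *Tf2* RNA within the *igo1* deletion. The sum was 107 ± 52.9 RPM in the libraries labelled *pab1*-repressed and 1387 ± 138 RPM in *igo1*Δ (SD, n = 2 each), a level 12.9-fold lower. The lower value held in each library: 145 and 70.1 RPM in *pab1*-repressed, against 1484 and 1289 RPM in *igo1*Δ. Every copy had both *pab1*-repressed libraries below both *igo1*Δ libraries, which held for 32.9% of all genes.

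*Tf2-8* had 66.6 and 30.1 RPM in *pab1*-repressed, against 593 and 519 RPM in *igo1*Δ. *Tf2-6* had 27.7 and 19.1 RPM in *pab1*-repressed, against 282 and 312 RPM in *igo1*Δ. *Tf2-11* had 9.88 and 7.60 RPM in *pab1*-repressed, against 170 and 130 RPM in *igo1*Δ. In these 3 copies the *pab1*-repressed pair differed by 2.22, 1.45 and 1.30 times, less than the gap to *igo1*Δ.

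The pair was wider in other copies. *Tf2-7* had 26.7 and 4.20 RPM in *pab1*-repressed, a 6.37-fold spread, against 247 and 159 RPM in *igo1*Δ. *Tf2-9* had 25 reads and 1 read in *pab1*-repressed, against 70 and 60 in *igo1*Δ. *Tf2-5* went the other way within the pair, with 17 and 62 reads in *pab1*-repressed, against 189 and 127 in *igo1*Δ. *Tf2-3* and *Tf2-5* were higher in replicate 2 of *pab1*-repressed, and the other 8 copies in replicate 1. Between the *igo1*Δ libraries the largest difference among the 10 copies was 1.55 times (*Tf2-7*), whereas *Tf2-1* and *Tf2-10*, outside the list, differed by 3.08 and 2.98 times.

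By limma on log2(value + 1), with adjustment over 6046 genes, 5 of 10 copies fell in the libraries labelled *pab1*-repressed, where 6.12% of all genes did. *Tf2-11* changed by −4.12 (SE 0.26, adjusted p = 0.00684, limma), *Tf2-6* by −3.72 (SE 0.26, adjusted p = 0.00771, limma) and *Tf2-4* by −5.13 (SE 0.50, adjusted p = 0.0136, limma). *Tf2-8* changed by −3.67 (adjusted p = 0.0188, limma) and *Tf2-2* by −4.18 (adjusted p = 0.0200, limma). The 5 that did not pass were *Tf2-7* at −4.25 (adjusted p = 0.0582, limma), *Tf2-3* at −2.84 (0.0632), *Tf2-12* at −3.24 (0.0786), *Tf2-5* at −2.59 (0.0972) and *Tf2-9* at −3.55 (0.133). The median over the 10 copies was −3.69, against 0.00 over all genes. The count turned on the test and on the *pab1*-repressed pair: DESeq2 on the recovered reads called 9 of 10 lower, with 12.0% of all genes, and limma called 10 of 10 with only replicate 2 kept (33.4% of all genes) or only replicate 1 kept (30.4%). Without replicate 1 of *pab1*-repressed the log2 fold changes of *Tf2-2*, *Tf2-4* and *Tf2-8* were −4.88, −5.80 and −4.26, and without replicate 2 they were −3.48, −4.46 and −3.07.

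The last comparison set *pab1*-repressed cells against WT, which differ in *igo1*, in *pab1* and in thiamine. The *Tf2* sum was 107 ± 52.9 RPM in *pab1*-repressed and 68.3 ± 5.60 RPM in WT (SD, n = 2 each), a ratio of 1.57, which is smaller than the 2.07-fold spread of the *pab1*-repressed pair. Its replicate 2, at 70.1 RPM, lay between the WT values of 72.3 and 64.4 RPM, and its replicate 1, at 145 RPM, lay above both.

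*Tf2-6* had 27.7 and 19.1 RPM in *pab1*-repressed, against 14.3 and 13.7 RPM in WT, and *Tf2-5* had 0.80 and 3.52 RPM, against 0.26 and 0.23 RPM in WT. Only for these 2 copies did both *pab1*-repressed libraries lie above both WT libraries, which held for 27.8% of all genes. The other 8 overlapped. *Tf2-4* had 3.15 and 1.25 RPM in *pab1*-repressed, against 3.45 and 2.75 RPM in WT. *Tf2-7* had 26.7 and 4.20 RPM in *pab1*-repressed, on either side of the 9.01 and 8.18 RPM in WT.

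*Tf2-9* and *Tf2-12* had mean values below 10 and were not tested here. Of the 8 tested, 0 were called by limma in either direction, with 0.0% of 6035 genes called higher and 0.0331% lower. 1 of the 8 had an unadjusted p under 0.05, and on the recovered reads DESeq2 (3.21% of all genes higher, 2.53% lower) and edgeR (0.0% and 0.0331%) called 0 as well. Log2 fold changes ran from −0.62 (SE 0.58) for *Tf2-4* to 2.53 (SE 0.88, adjusted p = 0.268, limma) for *Tf2-5*, with a median of 0.47. Either *pab1*-repressed library alone gave calls. Without replicate 1, limma called *Tf2-5* and *Tf2-6* higher and *Tf2-2*, *Tf2-4* and *Tf2-7* lower, with 33.8% of all genes called higher and 36.2% lower. Without replicate 2 it called *Tf2-2*, *Tf2-6*, *Tf2-7* and *Tf2-8* higher, of 6 tested, with 29.9% of all genes called higher and 30.9% lower. *Tf2-2* and *Tf2-7* thus changed direction with the library kept. A difference from WT within the range set by this pair was not detectable with 2 libraries.

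**Figure D2:**
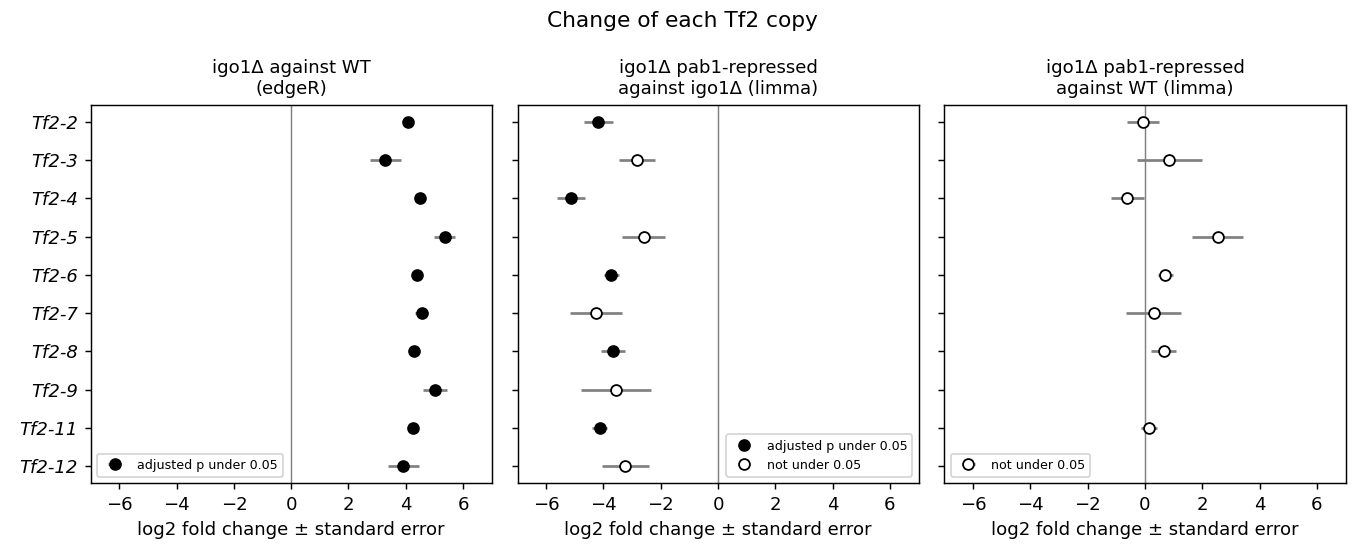
Log2 fold change of each *Tf2* copy with its standard error in the 3 comparisons, from edgeR for *igo1*Δ against WT and from limma on log2(value + 1) for the other 2. Filled circles have an adjusted p under 0.05; all 10 are filled in the first panel, 5 in the second and none of the 8 tested in the third.

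The comparisons share libraries, so the fall in *pab1*-repressed and the rise in *igo1*Δ use the same 2 *igo1*Δ libraries and are not separate evidence. Read per sequence version, where the division of reads among identical listed copies drops out, the 4 versions gave nearly equal folds in *igo1*Δ against WT. The versions differ at only 18 of 4002 positions, so most reads can also align to another version. The 4 folds are therefore not separate readings. The folds were 19.3 for *Tf2-2*, *Tf2-4* and *Tf2-9* together, 21.1 for *Tf2-3*, *Tf2-5*, *Tf2-6* and *Tf2-12*, 20.5 for *Tf2-7* and *Tf2-8*, and 19.0 for *Tf2-11*. In *pab1*-repressed against *igo1*Δ the same sums were 19.6-fold, 11.8-fold, 11.9-fold and 17.1-fold lower. *Tf2-1*, outside the list, has the first version too, and with it added that version was 20.6-fold higher in *igo1*Δ than in WT and 20.8-fold lower in *pab1*-repressed than in *igo1*Δ.

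The make-up of the *Tf2* reads was much alike in *igo1*Δ and WT. The first version (*Tf2-2*, *Tf2-4* and *Tf2-9*) held 11.5% and 11.9% of them in *igo1*Δ, 8.41% and 6.15% in *pab1*-repressed, and 12.8% and 11.6% in WT, so that both *pab1*-repressed libraries lay below the others. *Tf2-7* and *Tf2-8* together held 56.6% and 52.7% in *igo1*Δ, 64.4% and 48.9% in *pab1*-repressed, and 54.7% and 53.9% in WT. *Tf2-8* alone held 40.0% to 46.0% in the 6 libraries. *Tf2-11* held 11.4% and 10.1% in *igo1*Δ, 6.82% and 10.9% in *pab1*-repressed, and 12.0% and 11.0% in WT. The second version, led by *Tf2-6*, reached its highest share, 34.1%, in replicate 2 of *pab1*-repressed and lay between 20.3% and 25.4% elsewhere.

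**Figure D3:**
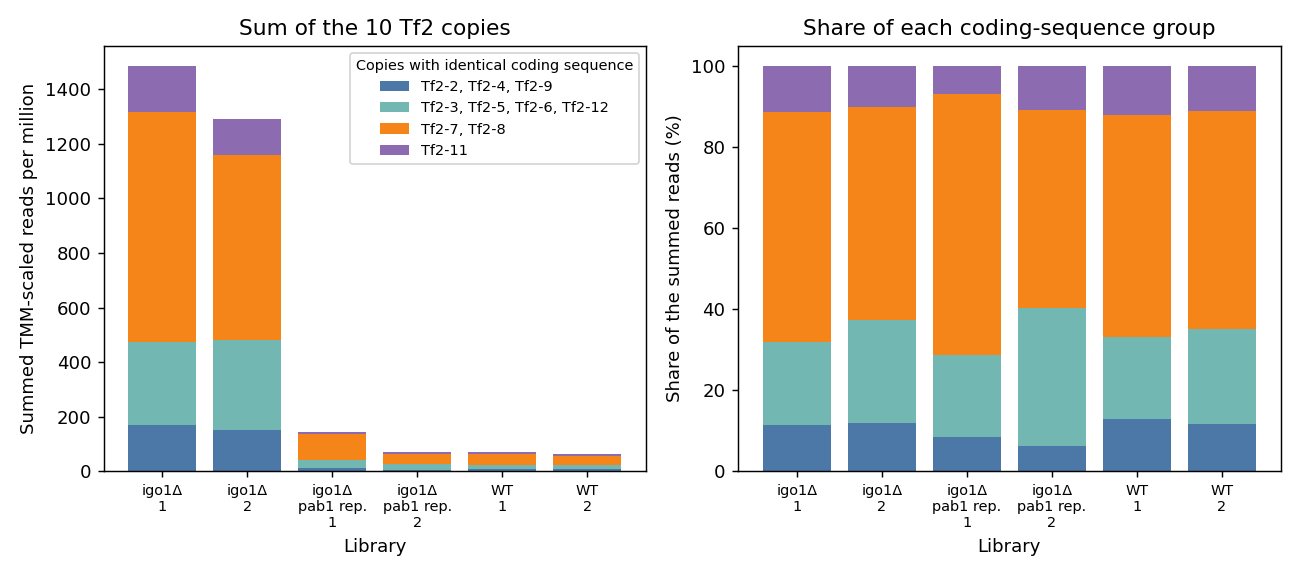
Left, summed TMM-scaled RPM of the 10 *Tf2* copies in each library, stacked by coding-sequence version; right, the share of each version in the *Tf2* reads of that library, in percent. The *igo1*Δ bars reach 1484 and 1289, the *pab1*-repressed bars 145 and 70.1 and the WT bars 72.3 and 64.4, while *Tf2-7* and *Tf2-8* hold 48.9% to 64.4% of the reads in every library.

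Copies with the same coding sequence had very different read numbers. *Tf2-6* had 4404 and 4559 reads in *igo1*Δ, against 53 and 35 for *Tf2-12*, a ratio of 83.1 and 130. *Tf2-2* had 20.1 and 20.6 times the reads of *Tf2-9* in the same libraries, and *Tf2-8* had 2.40 and 3.26 times those of *Tf2-7*. These ratios hold between rows of identical coding bases. Whether they come from the LTRs, the flanks, the gene models or the way reads were divided was not tested. In ASM294v3 each copy also overlaps antisense long non-coding RNAs, 20 overlaps in all, none with a row in the tables. The study's methods name a stranded kit, but the strand setting of the counting is not given in the sources used here, so sense and antisense reads cannot be told apart.

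The 3 copies outside the list moved alike. *Tf2-1*, whose coding bases are those of *Tf2-2*, changed by a log2 of 4.73 in *igo1*Δ against WT (adjusted p = 1.76e-04, edgeR), *Tf2-10* by 4.41 and *Tf2-13* by 3.99, and all 3 were called. In *pab1*-repressed against *igo1*Δ they were at −4.67, −4.41 and −4.28, all called lower by limma. Against WT 0 of the 3 were called by limma, edgeR or DESeq2, and 0 had an unadjusted p under 0.05 in limma. The sum of all 13 copies was 20.3-fold higher in *igo1*Δ than in WT.

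The pattern over the 6 libraries that came nearest to the *Tf2* sum was searched among the 5437 genes that averaged 50 reads or more, by the root mean square difference of centred log2 levels. The nearest 5 outside the list were the non-coding RNA SPNCRNA.1337 (0.30), *Tf2-13* (0.37), the non-coding RNA SPNCRNA.1571 (0.42), *lys4* (0.43), which encodes homocitrate synthase of lysine synthesis, and *leu3* (0.46), which encodes 2-isopropylmalate synthase of leucine synthesis. SPNCRNA.1337 had 44.1 and 49.3 RPM in *igo1*Δ, 2.21 and 0.51 in *pab1*-repressed and 1.09 and 0.94 in WT. *lys4* had 1326 and 1410 RPM in *igo1*Δ, 187 and 95.2 in *pab1*-repressed and 137 and 138 in WT. The likeness describes these 6 libraries only.

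A list of 20 genes known to hold *Tf2* RNA low or to act on it showed small RNA changes in *igo1*Δ against WT. These values say nothing of protein, which was not measured in these libraries. *clr3*, a listed histone deacetylase, changed in RNA by a log2 of 0.05 (adjusted p = 0.550, edgeR). The paper reports a modest, reproducible decrease of Clr3 protein in starved *igo1*Δ cells. Of the 20, 5 rose and 5 fell by edgeR, shares near the 29.6% and 30.1% of all genes, and the median log2 fold change was 0.04. Of the 6 with the smallest adjusted p, 3 fell and 3 rose. *hip3*, a HIRA subunit, changed by −0.37 (adjusted p = 0.00209, edgeR), *fft3*, a chromatin remodeller, by −0.30 (adjusted p = 0.00628, edgeR) and *ago1*, the Argonaute protein of RNA interference, by −0.27 (adjusted p = 0.00926, edgeR). *gaf1*, a GATA transcription factor, rose by 0.53 (adjusted p = 0.00241, edgeR), *asf1*, a histone chaperone, by 0.51 (adjusted p = 0.00410, edgeR) and *hst4*, a sirtuin deacetylase, by 0.35 (adjusted p = 0.00344, edgeR). In the other 2 comparisons 0 of the 20 were called by limma, with 1 and 2 of them at an unadjusted p under 0.05. DESeq2 and edgeR on the recovered reads called 0 in both as well. In *igo1*Δ against WT DESeq2 called 4 higher and 2 lower, with 27.5% and 23.9% of all genes. *atf1* and *pcr1*, transcription factors that the related Tf1 element uses to integrate, both rose in *igo1*Δ against WT, where 29.6% of all genes did. Their RNA changed by a log2 of 0.58 (adjusted p = 0.00406, edgeR) and 1.43 (adjusted p = 8.88e-06, edgeR). In *pab1*-repressed against *igo1*Δ, where 6.12% of all genes fell, *pcr1* fell by 1.38 on the log2 scale (adjusted p = 0.0471, limma), and *atf1*, at −0.35 (adjusted p = 0.363, limma), did not pass.

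The nearest gene on each side of each copy was sought among the 7001 genes, with all *Tf2* copies left out. A nearer annotated gene outside these can therefore have been passed over. The 20 flanks gave 18 different genes, of which 16 were tested. In *igo1*Δ against WT 9 rose and 3 fell by edgeR, where 29.6% and 30.1% of all genes did. Their log2 fold changes ran from −0.87 to 3.48 with a median of 0.43, against −0.03 over all genes. The largest rise was that of SPBC1289.14 beside *Tf2-11*, at 3.48 (SE 0.14, adjusted p = 3.48e-07, edgeR), with 802 and 639 reads in *igo1*Δ, against 66 and 72 in WT. SPNCRNA.1466 beside *Tf2-9* changed by 1.55 (adjusted p = 0.00289, edgeR) and SPAPB15E9.06 beside *Tf2-5* by 0.99 (adjusted p = 0.00480, edgeR). In *pab1*-repressed against *igo1*Δ 2 of the 16 fell by limma, with 6.12% of all genes: SPBC1289.14, at −5.32 with 16 and 31 reads in *pab1*-repressed, and *pvg2*, at −1.02. DESeq2 called 1 higher and 6 lower there, with 9.28% and 12.0% of all genes. Against WT 0 of the 16 were called by limma, with 4 at an unadjusted p under 0.05, 0 by edgeR and 2 higher by DESeq2, with 3.21% of all genes.

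**Figure D4:**
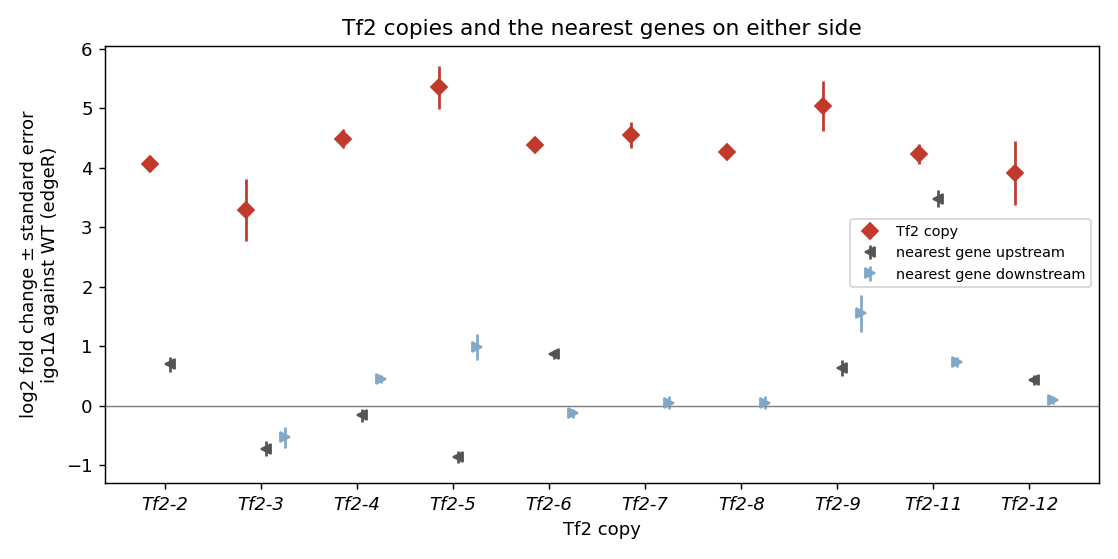
Log2 fold change with standard error in *igo1*Δ against WT for each *Tf2* copy (red diamonds) and its nearest genes upstream and downstream (triangles). The nearest genes were sought among the 7001 genes without the *Tf2* copies, and are shown where tested. The copies lie between 3.29 and 5.35 and the neighbours between −0.87 and 3.48, with SPBC1289.14 upstream of *Tf2-11* as the highest; *Tf2-7* and *Tf2-8* share the same 2 neighbours.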

How the data were processed

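RNA of 6 libraries was sequenced, and the authors deposited DESeq2-normalized read signal per gene in 2 separately scaled tables, 1 with WT and *pab1*-repressed and 1 with *igo1*Δ and *pab1*-repressed libraries. Per the submitters' processing notes and the methods, they used FastQC 0.11.8, Trimmomatic 0.38, HISAT2 2.1.0 and featureCounts (Subread 1.6.3), with build ASM294v2. Dividing each column by its smallest positive value gave whole reads for all values (tolerance 0.01), and the *pab1*-repressed reads were identical from both tables. The *igo1*Δ and WT reads, which lie in separate tables, were compared with edgeR 4.0.16 (TMM, quasi-likelihood test, genes averaging 10 reads or more). Pairs within a table were compared with limma 3.58.1 (trend) on log2(value + 1), genes averaging 10 or more. Fold changes on that scale understate the change of low genes. p-values were adjusted by Benjamini-Hochberg over all genes tested, with a threshold of 0.05. The fits were tried on simulated reads with 200 genes changed 4-fold and little spread between libraries (dispersion 0.01). All 200 were recovered in each comparison, with 15, 4 and 14 false calls in the order given above. A pair as wide as the *pab1*-repressed one and changes in genes with few reads were not simulated. Summed reads got no test.

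Sequences and neighbours came from RefSeq ASM294v3 (98.0% of the 7001 identifiers matched), which is not the build of the files, so no coordinates are given. The 10 copies, the gene lists, the nearest genes and the genes of similar pattern followed fixed rules, but members and lists were chosen with earlier results of these data known. Values are given for the 6 listed genes with the smallest adjusted p, the 3 neighbours of largest change and the 5 most similar genes. The values of *pvg2*, *pcr1*, *atf1* and *clr3* were chosen to be printed after they were seen. Alternatives were DESeq2 1.42.0, edgeR on recovered reads, upper-quartile scaling, other pseudocounts (0.1 and 10), no filter or a mean of at least 50, all 6 libraries in 1 fit, the replicate number as a block, and each library left out. R 4.3.3 and Python 3.11.15 were used.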

Additional observations from a re-analysis of the deposited data

How the results depend on the processing

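For *igo1*Δ against WT, the single copies kept their direction and their side of the threshold in 55 of 57 other settings and in 40 of 40 with a library left out; the exceptions were *Tf2-3* and *Tf2-9* with all 6 libraries in 1 fit, where 503 genes rose and 356 fell. Upper-quartile scaling called 1467 genes higher and 2278 lower, against 1754 and 1785 with TMM, and moved the median of all genes to −0.14; the log2 fold of the sum was 4.01 without TMM, against 4.34. For *pab1*-repressed against *igo1*Δ, DESeq2 called 9 copies, 563 genes higher and 729 lower, and the 6-library fit 777 and 876 genes. Upper-quartile scaling called 247 higher and 286 lower, against 176 and 370, with the median of all genes at 0.19. With a library left out, 5 to 10 copies, 34 to 1851 genes higher and 89 to 2015 lower were called; the lone library is then assumed to vary like the others. For *pab1*-repressed against WT, DESeq2 called 194 genes higher and 153 lower, the 6-library fit 47 and 76, and leaving out a library gave 0 to 5 copies, 0 to 2032 genes higher and 3 to 2178 lower. *Tf2-2* was at −0.079 by limma and at 0.0775 by edgeR, 0.0844 by DESeq2 and 0.0867 in the 6-library fit. With a library left out the log2 fold changes ran from −0.78 to 0.62 for *Tf2-2*, −0.36 to 2.06 for *Tf2-3*, −1.28 to 0.0406 for *Tf2-4*, −1.04 to 1.64 for *Tf2-7* and −0.0629 to 0.34 for *Tf2-11*; the cause was not tested. Deviations of same-numbered libraries correlated at 0.18, −0.01 and 0.16. No label says what the replicate numbers stand for, so whether they mark pairs is not known. As a block they gave 10 copies in *igo1*Δ against WT, with 1764 genes higher and 1819 lower, 6 in *pab1*-repressed against *igo1*Δ, with 170 higher and 374 lower, and 0 in *pab1*-repressed against WT, with 6 higher and 15 lower. Depth limits *Tf2-3*, *Tf2-5*, *Tf2-9* and *Tf2-12*, which had at most 16 reads in a WT library.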

Other observations

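In 2 of the 3 copies outside the list the libraries labelled *igo1*Δ differed more than for any of the 10. *Tf2-1* had 1137 and 345 reads, a 3.08-fold difference after scaling, and *Tf2-10* had 797 and 250 reads, a 2.98-fold difference. *Tf2-2*, with the same coding bases as *Tf2-1*, had 1405 and 1234 reads in those libraries, a 1.06-fold difference.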
